A study of Mus musculus with 78 samples.

Results

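The comparison described here is that of atorvastatin with vehicle in the partially ligated left common carotid artery (LCA) of mice, 12 h after surgery. It rests on 10 of the 78 arrays of the series, chosen by their titles alone: 5 LCA arrays of mice given atorvastatin and 5 LCA arrays of mice given vehicle, 1 array per mouse, with no link between the mice of the 2 groups. Every mouse of both groups had the same operation, partial ligation of the LCA, which leaves the vessel with low and disturbed flow. The unligated right common carotid artery (RCA) of each mouse was profiled as well. The drug was given by mouth each day at 10 mg/kg from 2 days before surgery, and the control mice received vehicle on the same schedule. RNA was flushed from the inside of each artery with a lysis reagent, so that the lining was enriched but not purified, and was measured on Affymetrix arrays. The labels used here give no strain, sex, age or genotype. Atorvastatin mice carry the numbers 6 to 10 and vehicle mice the numbers 1 to 5.

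Statins block HMG-CoA reductase, the enzyme that commits the mevalonate pathway to the synthesis of cholesterol and isoprenoids. When cellular sterol falls, the transcription factor SREBP2 raises the transcription of sterol-synthesis genes. In endothelial cells steady laminar flow maintains transcription factors such as Klf2 and Klf4 and their vasoprotective targets, and statins are known to raise some of these in cultured endothelium. All values below are log2 levels after robust multi-array averaging (RMA), and each difference is atorvastatin minus vehicle on that scale, where 1 means a doubling of signal. Each comes with the standard error (SE) of a limma fit to the 39 LCA arrays. A gene was called at a Benjamini-Hochberg adjusted p under 0.05 over the 11344 genes tested.

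Endothelial markers were detected: of 14, 12 lay above the array median on all 10 arrays, among them Vwf, Erg and Pecam1, and Kdr and Robo4 did not. Probe sets differ in affinity, so the array median is a rough threshold and levels of different genes are not compared. All 6 T cell, 4 B cell and 5 thyroid or parathyroid markers with a probe set lay below the array median on every array, whereas markers of fibroblasts (8 of 10), macrophages (3 of 12) and smooth muscle (3 of 8) included genes above it on all 10. Array medians lay between 4.6 and 4.68. Correlation between arrays over the tested genes was 0.913 to 0.976 within atorvastatin, 0.931 to 0.970 within vehicle and 0.922 to 0.972 between the groups. Of the 10 arrays, 6 had their closest match in their own group. The first principal component held 33.2% of the variance and was positive in atorvastatin mice 7, 9 and 10 and vehicle mouse 5, so it did not separate the treatments. The Gapdh 3′ minus 5′ control difference, a sign of RNA or labelling quality, differed by less than its spread, at 4.87 ± 0.81 against 4.82 ± 0.30 (SD, n = 5 each, exact two-sided permutation p = 0.929, Benjamini-Hochberg p = 0.929 over 3 quality values). The bacterial hybridisation controls, added to every sample, were at 8.78 ± 0.16 against 8.57 ± 0.11, higher by 0.22 under atorvastatin (SD, n = 5 each, exact two-sided permutation p = 0.0556, Benjamini-Hochberg p = 0.167 over the 3 values), and their part in the results was not tested.

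No gene was called in the LCA at 12 h: 0 of 11344 genes (0%), with a lowest adjusted p of 0.119. At an unadjusted p under 0.05 there were 577 genes, 286 higher and 291 lower under atorvastatin, which is 5.09% of those tested. The 5 atorvastatin and 5 vehicle values did not overlap for 76 genes (0.67%), 31 of them higher and 45 lower under the drug. The median difference over all genes was -0.01. The intervals show how far this reaches: for 85.0% of genes the 95% confidence interval of the difference lay within 1 log2 unit on either side of zero, and the median half-width was 0.45. A doubling or halving was therefore outside the interval for most single genes, and smaller effects were not resolved. An estimated difference beyond 1 log2 unit was seen for 47 genes. The 0 calls changed in 2 kinds of fit, array weights and the removal of single arrays. When arrays were weighted by how well they followed their group, 152 genes (1.34%) were called, 100 higher and 52 lower, and 2173 had an unadjusted p under 0.05. In that fit atorvastatin mice 8 and 6 and vehicle mouse 5 had the lowest weights of the 10 arrays, 0.33, 0.44 and 0.42. Leaving out 1 array at a time called 4 genes without atorvastatin mouse 6, 2 without vehicle mouse 2, 1 without atorvastatin mouse 9 and 0 otherwise. The 577 genes at an unadjusted p under 0.05 became 417 to 1148 in these fits, with 978 without atorvastatin mouse 6 and 1148 without vehicle mouse 5.

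**Figure D1:**
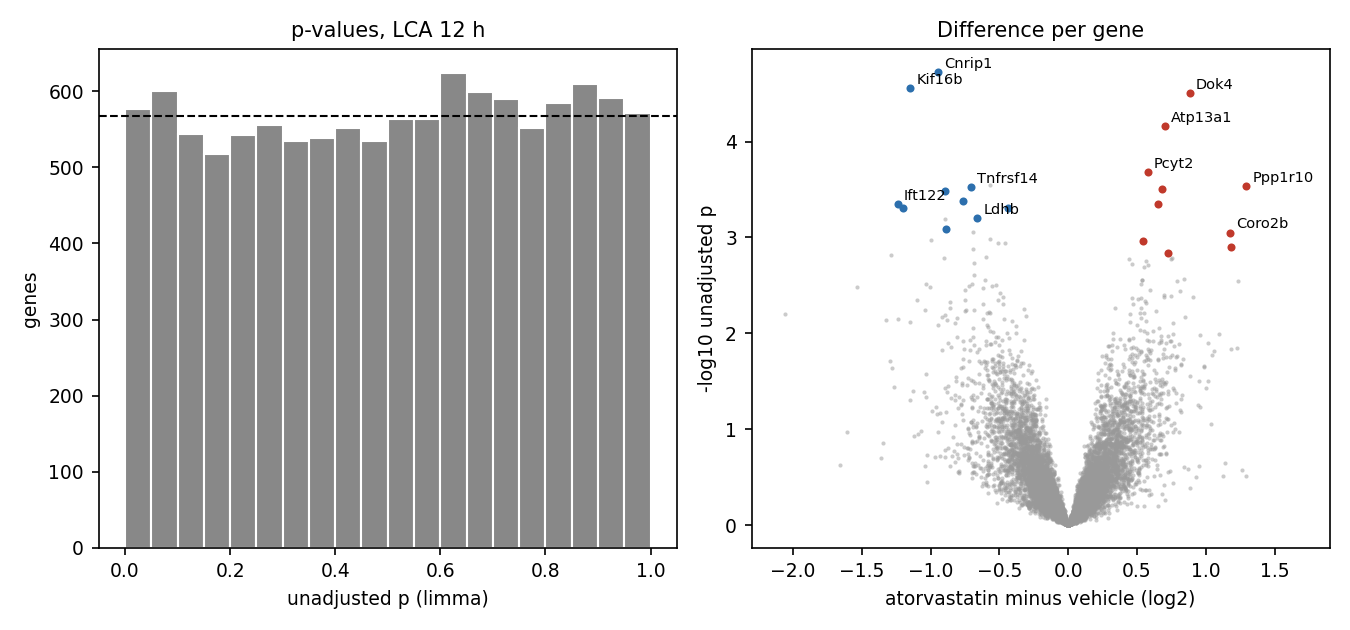
Left, number of genes in each of 20 equal bins of unadjusted limma p for atorvastatin against vehicle in the LCA at 12 h (n = 5 each), with a dashed line at an equal number per bin. Right, each gene's log2 difference against -log10 of its p, with the 10 leading higher genes in red and the 10 leading lower genes in blue; the bins are nearly level, and 0 of 11344 genes passed the adjusted threshold.

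The genes nearest to the threshold belonged to scattered functions. The 3 lowest adjusted p-values, all 0.119, were those of Cnrip1, Kif16b and Dok4. Cnrip1, which encodes a protein that binds the cannabinoid receptor tail, stood at log2 levels of 6.73, 6.30, 6.35, 6.03 and 6.62 in atorvastatin mice 6 to 10. In vehicle mice 1 to 5 it stood at 7.32, 7.21, 7.78, 7.25 and 7.21. The groups did not overlap, every atorvastatin mouse lying below every vehicle mouse, with a difference of -0.94 (SE 0.19). Kif16b, a kinesin motor of early endosomes, stood at 5.95, 5.84, 5.74, 5.33 and 6.0 under atorvastatin. Under vehicle it stood at 6.81, 6.25, 7.15, 7.70 and 6.68. These groups did not overlap either, and the difference was -1.15 (SE 0.24). Dok4, an adaptor of receptor tyrosine kinase signalling, was at 5.76, 5.73, 5.46, 5.11 and 6.28 under atorvastatin and at 4.84, 4.55, 4.32, 5.32 and 4.91 under vehicle. Atorvastatin mouse 9 lay below vehicle mouse 4, and the other values were apart, with a difference of 0.88 (SE 0.18).

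Among the other genes on the higher side, Atp13a1, an endoplasmic reticulum ATPase that removes misplaced membrane proteins, was next (limma adjusted p = 0.194). Its levels were 5.61, 5.73, 5.48, 5.49 and 5.75 under atorvastatin and 4.91, 5.16, 4.5, 4.76 and 5.23 under vehicle, without overlap. Pcyt2, an enzyme of phosphatidylethanolamine synthesis, differed by 0.58 (SE 0.14), and its groups did not overlap. Dusp12, a dual-specificity phosphatase, differed by 0.68 (SE 0.17): the atorvastatin mice spanned 6.75 to 6.97 and the vehicle mice 5.57 to 6.71, so the drug group was the tighter one. The groups of Hdac10, a polyamine deacetylase, and Nrm, an inner nuclear membrane protein, were apart as well, at 0.54 (SE 0.15) and 1.18 (SE 0.34). Overlap was present for Ppp1r10, a nuclear regulator of protein phosphatase, at 1.29 (SE 0.32), for the coronin Coro2b at 1.18 (SE 0.32), for the ribosome-rescue factor Pelo at 0.65 (SE 0.17) and for Spata2, an adaptor of ubiquitin editing, at 0.72 (SE 0.21). The adjusted p of the 10 higher genes ran from 0.119 to 0.561, so none of them passed.

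On the lower side, Mlph, an effector that ties Rab-bearing organelles to myosin, stood at 5.89, 5.22, 5.44, 5.72 and 5.65 under atorvastatin and at 6.80, 6.16, 6.67, 7.94 and 6.34 under vehicle. Its groups did not overlap, at a difference of -1.20 (SE 0.31). The groups were also apart for Ldhb, the lactate dehydrogenase B subunit, at -0.66 (SE 0.18), and for R3hdm1 at -0.44 (SE 0.11). They overlapped for Tnfrsf14, a receptor of the tumour necrosis factor family, at -0.71 (SE 0.18), and for Amacr, a racemase of branched fatty acid oxidation, at -0.89 (SE 0.24). The same held for Zswim5 at -0.76 (SE 0.20), for Ift122, a subunit of the ciliary transport machinery, at -1.24 (SE 0.32), and for the mitochondrial transcription factor gene Mterf1b, which has a close paralogue, at -0.89 (SE 0.22). For Mterf1b the overlap came from atorvastatin mouse 6 alone, at 5.87, and for Ift122 from the same mouse, at 7.20, and from vehicle mouse 5, at 5.88. The 10 lower genes had adjusted p-values of 0.119 to 0.504.

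**Figure D2:**
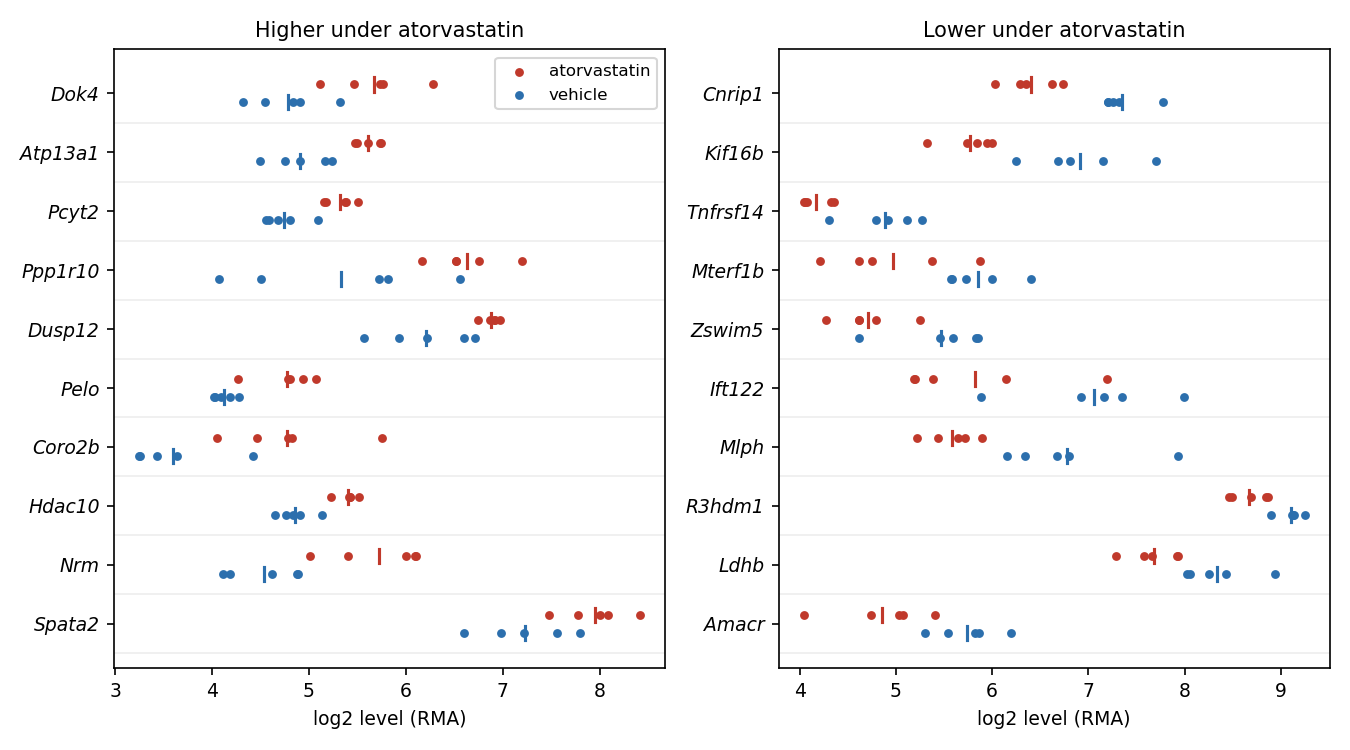
RMA log2 level (x axis) of the 10 higher (left) and 10 lower (right) genes of smallest unadjusted p in the LCA at 12 h. Each point is 1 mouse, red for atorvastatin and blue for vehicle, and the vertical bars are group means of 5 arrays. The groups do not overlap for 5 genes on each side, beside 76 of all 11344 genes (0.67%). The genes shown were chosen for small p on these same arrays, which favours groups that are apart.

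At later times the direction of these 20 differences was mixed. The same direction was found for 9 of the 20 genes in the LCA at 24 h, for 8 at 48 h and for 10 at 2 weeks, each in other mice, and none of the 20 was called there. Over all genes, 0 of 11344 (0%) were called for the drug at 24 h, at 48 h and at 2 weeks, with 309, 476 and 313 at an unadjusted p under 0.05. Mice are numbered within each time, and these 3 counts moved with single arrays, from 252 to 425 at 24 h, from 144 (without atorvastatin mouse 8) to 1257 (without atorvastatin mouse 6) at 48 h and from 153 (without vehicle mouse 2) to 454 at 2 weeks. The contrast of the 12 h difference with the mean of the 3 later ones called 0 genes (0%), with a lowest adjusted p of 0.412 and 349 genes at an unadjusted p under 0.05. Cnrip1, for example, differed by -0.94 at 12 h and by 0.06, 0.01 and 0.03 at the later times. Of the 20 genes, 10 had a further probe set. The other probe set gave -0.05 for Cnrip1, -0.01 for Kif16b, -0.04 for Ift122, 0.12 for Mlph and 0.15 for Ppp1r10, and only for Ldhb did it come near, at -0.39. Several of these other probe sets were dimmer, such as that of Cnrip1 with a mean of 3.77 over all arrays. But one of R3hdm1, with a mean of 8.97, gave 0.00, and that of Ppp1r10 had a mean of 5.46 beside 5.89 for the one used. That of Kif16b had a mean of 5.36 beside 6.24 for the one used, and lay at 5.84 in both LCA groups at 12 h. Those of Hdac10 and Zswim5 gave -0.25 and 0.23 and another of R3hdm1 gave 0.31, opposite in sign to the probe sets used. These were dim, with means of 2.94, 3.75 and 4.36.

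**Figure D3:**
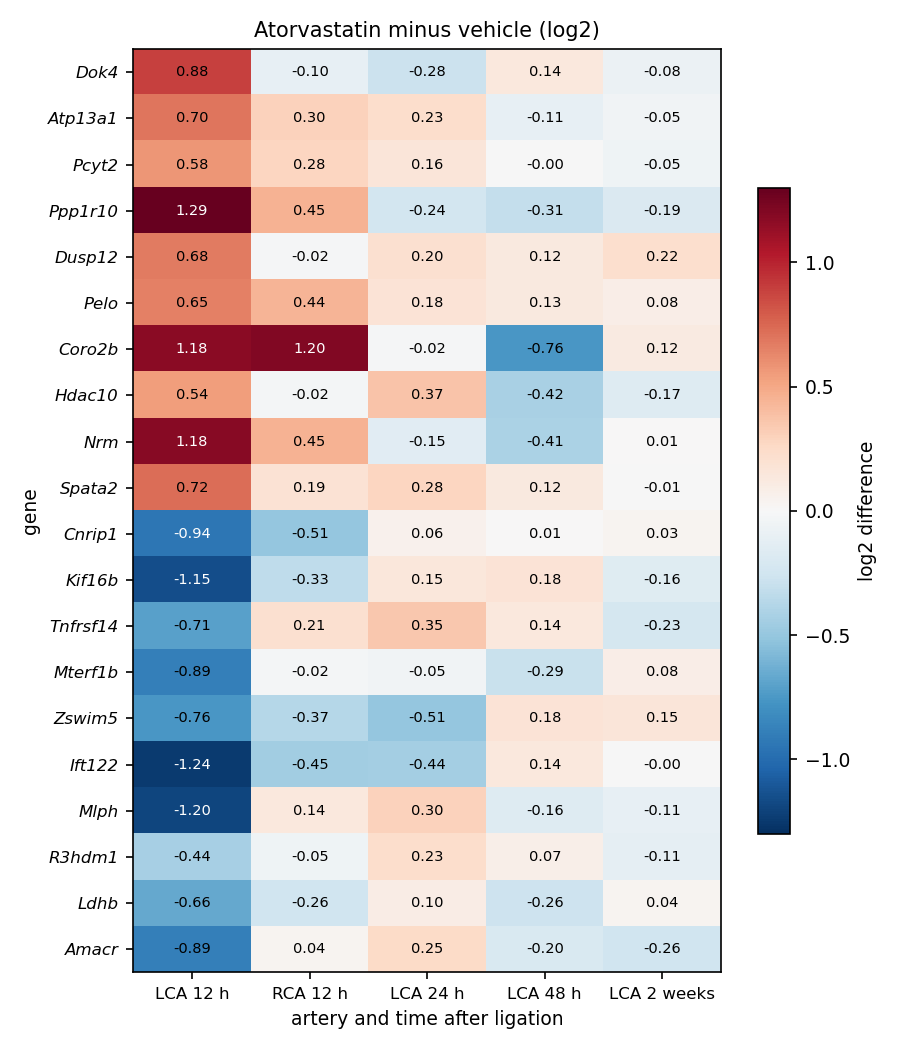
Atorvastatin minus vehicle log2 difference of the 20 leading genes (rows) in the LCA at 12 h, the RCA at 12 h, and the LCA at 24 h, 48 h and 2 weeks (columns), on a colour scale from blue (lower) to red (higher). The first column is the one that chose the genes; Coro2b is high in the first 2 columns (1.18 and 1.20), and most later values are near zero.

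The genes by which a statin response is usually read gave no called difference. Of 25 listed sterol-synthesis genes and SREBP2 targets, 16 could be tested. None was called, 6 were higher and 10 lower, and the median was -0.06 beside -0.01 over all genes, while the mean over the 16 genes was 0.02 higher under the drug. The list's mean level was 5.98, 5.88, 6.02, 6.02 and 6.14 in atorvastatin mice and 5.98, 6.06, 6.03, 5.94 and 5.92 in vehicle mice, so the groups lay within one another. Squalene epoxidase (Sqle) differed by 0.12 (SE 0.40), the isomerase Idi1 by -0.04 (SE 0.27), the sterol sensor Insig1 by -0.10 (SE 0.19) and the sterol demethylase Cyp51 by -0.28 (SE 0.29). Hmgcs1 was below the level filter, at log2 levels of 2.56 to 3.11 on the 10 arrays, and was not tested. For 15 of the 16 genes the 95% interval lay within 1 log2 unit of zero.

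Ebp, the isomerase of late sterol synthesis, was the exception within that list. It stood at 6.73, 7.43, 7.11, 7.13 and 7.63 in atorvastatin mice 6 to 10 and at 6.53, 6.39, 5.56, 6.89 and 6.91 in vehicle mice 1 to 5. Atorvastatin mouse 6 lay below vehicle mice 4 and 5, and the other atorvastatin values were above every vehicle value. The difference was 0.75 (SE 0.22, limma adjusted p = 0.561). It was not called here and was called with array weights, at 0.87 (limma adjusted p = 0.0465). In the RCA of the same mice Ebp differed by 0.34, and in the LCA at 24 h, 48 h and 2 weeks by 0.23, -0.34 and 0.04. It was named because its unadjusted p fell under 0.05, after the values were seen.

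The fatty acid genes driven by SREBP1, 10 tested, had a median of -0.22 with 7 lower, among them Elovl6, a fatty acid elongase, at -0.71 (SE 0.50) and Scd1, a desaturase, at -0.52 (SE 0.33). Acss2, which makes acetyl-CoA from acetate, differed by -0.82 (SE 0.40, limma adjusted p = 0.952). The 3 higher genes were Fads1 at 0.33 (SE 0.23), Fads2 at 0.24 (SE 0.18) and Fasn at 0.01 (SE 0.30). The list's mean level was highest in vehicle mice 5 and 3, at 8.18 and 8.06. Among atorvastatin mice it was highest in mouse 8, at 7.87. Adipocyte markers, given below, were high in the same 3 arrays, and their part in this list was not tested. The 6 tested genes of cholesterol efflux and LXR had a median of 0.01, a value that changed sign, to -0.01, when the arrays were quantile-normalised again. None of these genes was called.

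Flow-linked vasoprotective genes gave 16 tested, 0 called, 7 higher and 9 lower, with a median of -0.05. Klf2, the flow-induced transcription factor, was at 7.25, 7.10, 7.16, 6.88 and 6.84 in atorvastatin mice and at 7.86, 7.62, 6.85, 8.04 and 7.65 in vehicle mice. Vehicle mouse 3 fell among the atorvastatin mice and the other 4 vehicle mice lay above all of them. The difference was -0.56 (SE 0.28, unadjusted 95% interval -1.13 to 0.01, limma adjusted p = 0.952), and the interval included zero. Nos3, the endothelial nitric oxide synthase, differed by -0.27 (SE 0.20), Klf4 by -0.11 (SE 0.46), thrombomodulin (Thbd) by 0.24 (SE 0.22) and the protease Klk10 by 0.03 (SE 0.42).

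Of the inflammation and adhesion genes 17 were tested, 0 were called, 11 were higher, and the median was 0.11. Icam1 differed by 0.11 (SE 0.12), Vcam1 by 0.13 (SE 0.27), P-selectin (Selp) by 0.03 (SE 0.14), the vasoconstrictor precursor Edn1 by 0.24 (SE 0.23) and the chemokine Cxcl2 by 0.63 (SE 0.49). E-selectin (Sele) showed how widely the mice varied: it spanned 6.21 to 10.34 under atorvastatin and 6.78 to 9.18 under vehicle. The matricellular gene Ccn2, a target of YAP and TAZ, differed by 0.05 (SE 0.33), and the haem oxygenase gene Hmox1 by -0.16 (SE 0.57).

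**Figure D4:**
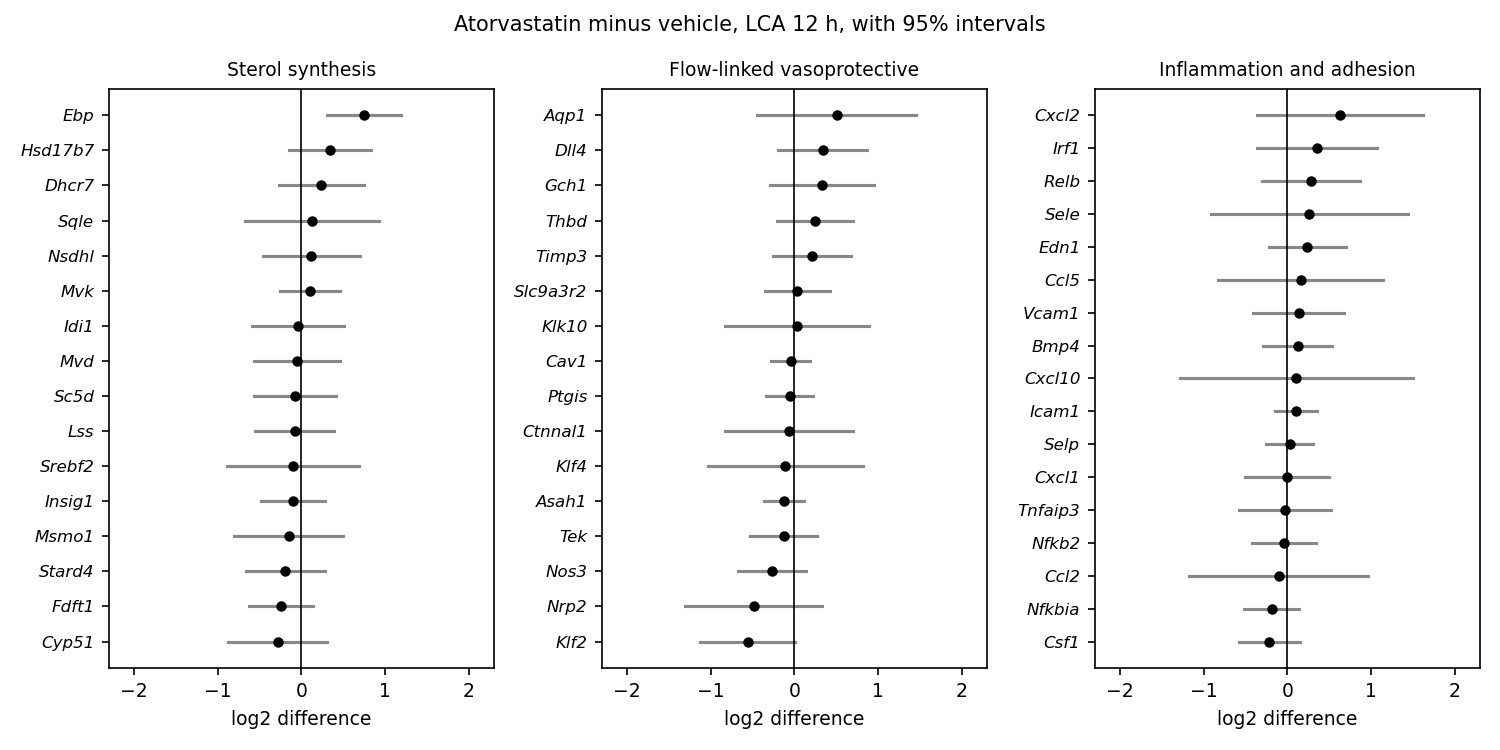
Atorvastatin minus vehicle log2 difference (points) with its 95% limma interval (bars) in the LCA at 12 h for every tested gene of 3 lists, n = 5 arrays per group. Ebp is the gene whose unadjusted interval does not reach zero; none of the genes shown passed adjustment over 11344 genes.

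Across all 39 lists, 394 genes were tested, 0 were called, and 15 had an unadjusted p under 0.05, which is 3.81% beside 5.09% of all genes. List medians were above zero for 16 lists and below for 21. All 9 heat shock genes and 17 of 19 genes of the unfolded protein and ATF4 responses were slightly higher, with medians of 0.14 and 0.13, and 0 of either were called. In the cell cycle list, 17 of 23 genes were lower, with a median of -0.15. Mki67, a marker of dividing cells, was at 6.28, 5.22, 5.30, 5.2 and 5.98 under atorvastatin and at 6.62, 6.34, 7.59, 7.45 and 6.31 under vehicle, without overlap, at -1.27 (SE 0.58, limma adjusted p = 0.952). The next largest were the mitotic checkpoint kinase gene Bub1b at -0.73 (SE 0.43) and the cyclin gene Ccnb2 at -0.65 (SE 0.41), while Top2a was at -0.29 (SE 0.60) and Cdk1 at -0.16 (SE 0.55). Interferon-response genes were lower in 8 of 10, with a median of -0.24, and Rsad2, an antiviral enzyme, differed by -1.13 (SE 0.53). Vehicle mouse 2 was the high one: its interferon list mean was 7.10 and those of the other vehicle mice were 6.31 to 6.71, beside 6.04 to 6.39 under atorvastatin.

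Other list members with an unadjusted p under 0.05 were Notch1, an arterial receptor, at 0.55 (SE 0.20), Acvrl1, an endothelial receptor of bone morphogenetic proteins, at 0.50 (SE 0.18), Eln, elastin, at 0.82 (SE 0.34), Anxa2, which promotes fibrinolysis at the cell surface, at 0.57 (SE 0.23) and Per1, a clock gene, at 0.82 (SE 0.40). Bcl2l11, a pro-apoptotic regulator, was at 0.44 (SE 0.19), Nr4a2, an immediate early nuclear receptor, at -0.87 (SE 0.40) and Ucp1, a brown fat gene, at -0.88 (SE 0.41). Acvrl1 was the only one of these 8 whose groups did not overlap, at 8.53 to 8.88 under atorvastatin and 7.74 to 8.50 under vehicle. For some a single vehicle mouse stood far from the other vehicle mice. Ucp1 was highest in vehicle mouse 3, at 6.99 with the next at 4.09, and Nr4a2 in vehicle mouse 2, at 8.94 with the next at 7.10. Bcl2l11 was lowest in vehicle mouse 4, at 8.81 with the next at 9.46. None of the 8 was called, and the dimmer second probe set of Notch1 gave -0.12. With array weights 5 list genes were called, among them Ebp, Anxa2, Notch1 and Gpx1, a glutathione peroxidase that differed by 0.35 without weights and 0.69 with them.

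Markers of endothelium and of other cells varied widely among the mice of each group. In flushed tissue fewer cells of a type and less RNA per cell cannot be told apart. In the LCA endothelial markers were higher in 11 of 14 genes, with a median of 0.11 and 0 called. Their RCA median was 0.34. Their LCA mean level was 9.19, 9.81, 8.89, 9.58 and 9.57 in atorvastatin mice 6 to 10. It was 9.20, 9.29, 8.92, 9.46 and 9.73 in vehicle mice 1 to 5. The mice with the highest values, atorvastatin 7, 9 and 10 and vehicle 5, were those positive on the first principal component. Macrophage markers in the LCA were lower in 10 of 11 genes, with a median of -0.51 and none called. In the RCA of the same mice their median was 0.38, the opposite direction. Their mean level in the LCA was 4.22, 5.17, 5.66, 5.66 and 5.59 in atorvastatin mice 6 to 10. It was 5.54, 5.61, 5.38, 5.62 and 6.60 in vehicle mice 1 to 5, so the lowest and the highest values came from single mice. Ms4a7, a macrophage membrane protein, had groups apart, at 3.77, 3.94, 4.21, 4.89 and 4.40 under atorvastatin and 5.81, 5.35, 5.11, 5.79 and 5.63 under vehicle, with a difference of -1.29 (SE 0.53, limma adjusted p = 0.920). The next largest differences were those of the scavenger receptor gene Cd163 at -0.95 (SE 0.57), the mannose receptor gene Mrc1 at -0.73 (SE 0.53) and Cd68 at -0.66 (SE 0.43), and the smallest were those of Csf1r, C1qa and C1qb, at -0.06, -0.02 and 0.11. Fibroblast markers had a median of -0.29 with 6 of 9 lower, and the median turned to 0.01 with array weights. Neutrophil markers were higher in 5 of 5, with a median of 0.34, and stood out in atorvastatin mouse 10, whose list mean was 6.06 beside 3.51 to 4.81 in the other atorvastatin mice and 3.47 to 4.29 under vehicle. Whether these cell markers bear on any difference above was not tested.

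The genes of largest spread within a group included several of acute inflammation and several of fat tissue. The median SD over genes was 0.34 under atorvastatin and 0.31 under vehicle, and the SD exceeded 1 in 265 and 169 genes, 75 of them in both groups. Those described here are from the 8 of largest SD per group, sorted by known function after their values were seen. Ptx3, a secreted pentraxin, was at 7.30, 3.72, 9.59, 9.77 and 9.72 in atorvastatin mice 6 to 10 and at 6.38, 10.08, 9.63, 6.16 and 4.61 in vehicle mice 1 to 5. Saa3, an acute-phase protein, was at 8.14, 4.29, 3.11, 9.05 and 7.21 and at 3.78, 9.10, 9.91, 3.46 and 4.55. High mice were present in both groups, vehicle mice 2 and 3 among them, and the differences were 0.65 (SE 1.37) for Ptx3 and 0.20 (SE 1.44) for Saa3.

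Other inflammatory genes among them followed no single order of mice. Tnfaip6, an anti-inflammatory hyaluronan-binding protein, was highest in atorvastatin mice 8 and 10, at 8.01 and 7.22, and in vehicle mouse 2, at 7.50, with 2.43 to 3.80 elsewhere. The neutrophil chemokine gene Cxcl5 was highest in atorvastatin mouse 10, at 8.41, followed by vehicle mice 3 and 2, at 6.29 and 5.48. The metalloprotease gene Adam12 was at 7.32 and 7.54 in atorvastatin mice 9 and 10 and at 7.20 and 7.23 in vehicle mice 2 and 3. In the unligated RCA of the same 10 mice, Saa3 stayed between 3.03 and 4.67, Cxcl5 between 2.32 and 2.82 and Tnfaip6 between 2.23 and 3.83, so their high values were confined to the ligated artery at this time, whereas Ptx3 reached 8.08 and Adam12 reached 6.19 in the RCA. Outside both functions, atorvastatin mouse 8 stood alone for Olr1, the oxidised lipoprotein receptor, at 8.23 beside 2.57 to 3.96 in the other 9, and for Speg, a muscle kinase, at 2.38 beside 6.31 to 8.53.

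Genes of fat tissue were high in a partly different set of mice. Adipoq, the adipocyte hormone adiponectin, was at 2.43, 3.59, 5.29, 2.89 and 2.78 under atorvastatin and at 3.44, 2.46, 8.08, 3.47 and 7.58 under vehicle. Mean levels of the 5 tested adipocyte markers were 6.56 in atorvastatin mouse 8 and 7.37 and 7.14 in vehicle mice 3 and 5, against 4.59 to 5.07 in the other 7. Car3, Cyp2e1 and Slc36a2 were high in the same 3 arrays, at 10.34, 8.21 and 6.95 in atorvastatin mouse 8, at 10.74, 6.83 and 8.24 in vehicle mouse 3 and at 11.12, 8.84 and 7.30 in vehicle mouse 5. All 5 adipocyte markers were lower under atorvastatin, with a median of -0.67, and none was called. Without these 3 arrays, a choice made after seeing the data, the drug comparison again called 0 genes, with a lowest limma adjusted p of 0.103 and 1098 genes at an unadjusted p under 0.05.

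**Figure D5:**
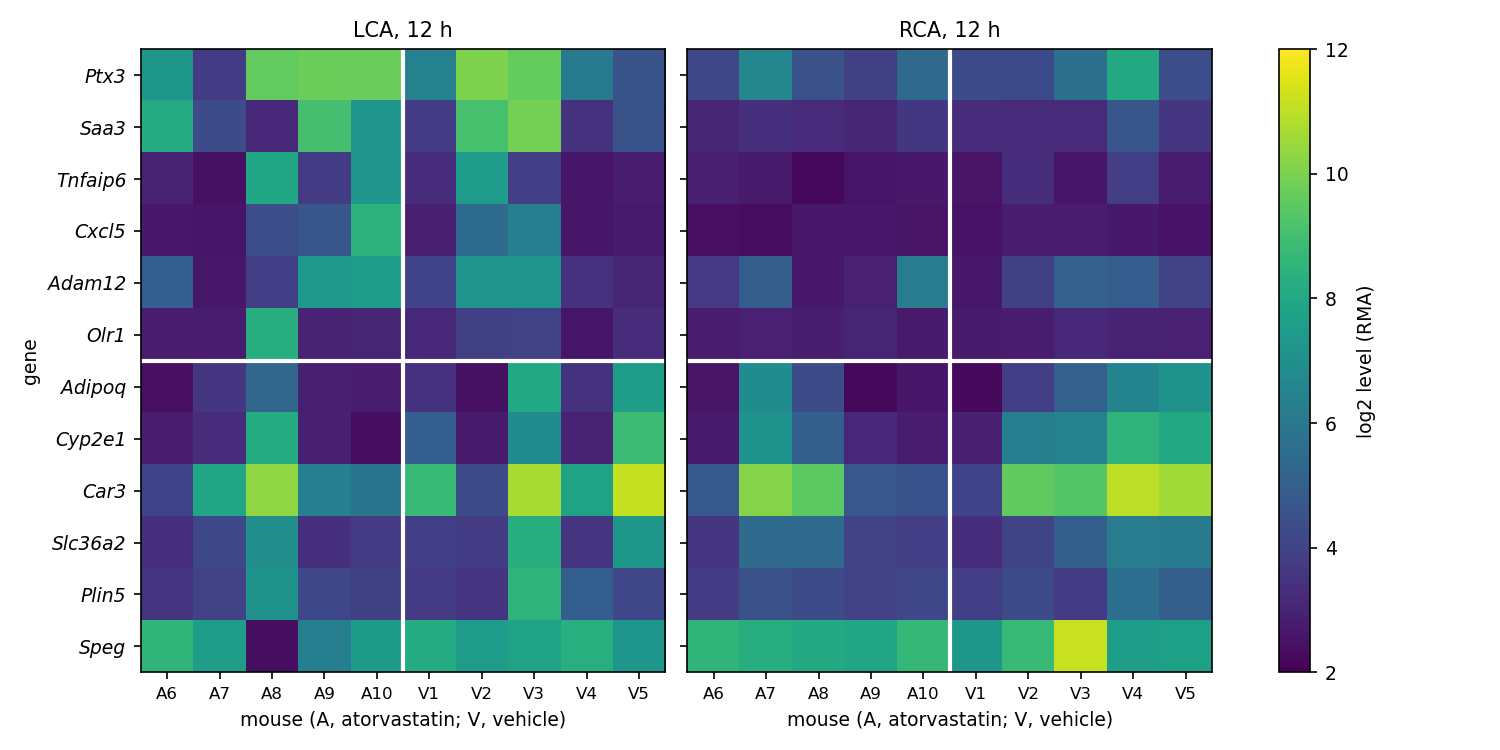
RMA log2 level (colour, from 2 to 12) of genes with the largest SD within a group, in the LCA (left) and RCA (right) of the 10 mice at 12 h; A marks atorvastatin mice and V vehicle mice. Inflammatory genes (Ptx3 to Adam12) are high in the LCA of some mice of both groups, and Olr1 in the LCA of A8 alone. Fat-tissue genes (Adipoq to Plin5) are high in the LCA of A8, V3 and V5 and in the RCA of partly other mice.

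RNA end ratios also moved with levels inside groups. Over the 39 LCA arrays, the Gapdh 3′ minus 5′ difference entered as a term within groups called 905 genes (7.98%), 347 rising and 558 falling with it. At 12 h it was 4.88, 4.13, 6.21, 4.36 and 4.79 in atorvastatin mice 6 to 10 and 4.94, 4.98, 5.17, 4.59 and 4.44 in vehicle mice 1 to 5, with atorvastatin mouse 8 the highest. With that term in the fit the drug comparison called 0 genes, with a lowest limma adjusted p of 0.0624 and 733 genes at an unadjusted p under 0.05.

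The unligated RCA of the same mice was compared in the same way to see whether the ligated artery differed. Drug calls in the RCA numbered 5 (0.0441%), 2 higher and 3 lower, and 1274 genes (11.2%) had an unadjusted p under 0.05. That count of 1274 became 501 with the Gapdh end ratio in the fit, 506 with the 2 groups alone, 2305 without atorvastatin mouse 9 and 809 without vehicle mouse 4. The named ones were Ube4a, a ubiquitin ligase, at 1.13, Ldah, a lipid droplet hydrolase, at 0.94, Dnmbp, a Cdc42 exchange factor, at -0.94 and Mbd4, a DNA repair glycosylase, at -0.93, and the remaining one is a predicted gene. Other probe sets of these 4 genes ranged from -0.19 to 0.37 in the RCA. The Gapdh end difference was lower under atorvastatin in the RCA, at 4.21 ± 0.21 against 4.74 ± 0.31 (SD, n = 5 each, exact two-sided permutation p = 0.0159, Benjamini-Hochberg p = 0.0476 over 3 values, smallest possible 0.00794), and no RCA gene was called with it in the fit. Leaving out 1 RCA array at a time gave 0 to 194 calls, the highest without atorvastatin mouse 9 and 57 without vehicle mouse 5.

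Testing the LCA minus RCA difference of each mouse between treatments, which asks directly whether the drug acted differently in the ligated artery, called 1 gene (0.00882%). It was Ube4a, at -1.73 (limma adjusted p = 0.0159). In the LCA, Ube4a was at 5.96, 6.46, 5.27, 6.29 and 6.49 under atorvastatin and 6.33, 6.12, 6.44, 6.87 and 7.66 under vehicle. In the RCA it was at 6.77, 6.81, 6.74, 6.69 and 6.5 under atorvastatin and 6.06, 4.92, 5.96, 4.77 and 6.13 under vehicle. The RCA groups were apart and the LCA groups overlapped. Its other 2 probe sets differed by 0.71 and 0.20 in the LCA and by 0.01 and 0.37 in the RCA, neither giving the opposite signs of the probe set used. The call was lost without any 1 of atorvastatin mice 6 and 8 and vehicle mice 2, 4 and 5.

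Differences in the 2 arteries of the same mice were set side by side. At an unadjusted p under 0.05 in both arteries there were 89 genes, of which 81 had the same direction, 50 higher and 31 lower. The 81 are 14% of the 577 LCA genes and 6.36% of the 1274 RCA genes. Among all genes, 11.2% met this p in the RCA and 5.09% in the LCA. Those shares of all genes count either direction and the 81 only the same direction, so they are not like for like. Whether the overlap exceeds that of unrelated arteries was not tested. None of the 81 passed adjustment in either artery, and arteries of the same mice are not independent. Coro2b is one of them. In the LCA it was at 4.06, 4.46, 5.76, 4.82 and 4.79 under atorvastatin and 3.64, 3.25, 4.43, 3.26 and 3.43 under vehicle, and in the RCA at 6.18, 4.61, 5.34, 5.04 and 4.32 against 3.90, 3.67, 3.87, 3.98 and 4.06. The RCA groups were apart, at 1.20 (SE 0.29, limma adjusted p = 0.129), but at 24 h, 48 h and 2 weeks the LCA differences were -0.02, -0.76 and 0.12. Notch1 differed by 0.55 and 0.50 in the LCA and RCA, and the proteoglycan gene Sdc4 by 1.04 and 1.0. Groups were apart for 76 genes in the LCA and 71 in the RCA, and no gene had them apart in both arteries in the same direction. With so few genes apart in each artery, this absence decides nothing.

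Ligation differences were compared between treatments for 16 genes, chosen from earlier results as leading LCA against RCA differences in these vehicle mice at 12 h. Their values under vehicle are therefore a description, and the comparison between treatments reuses them. All 16 had the same direction in atorvastatin mice, and 0 were called as differing between treatments. Klf2 was lower in the LCA than in the RCA by 3.04 log2 units on average in atorvastatin mice and by 2.39 in vehicle mice, a difference between treatments of -0.65 (SE 0.28, limma adjusted p = 0.9998). The angiogenic ligand gene Angpt2 was higher in the LCA by 2.17 ± 1.42 under atorvastatin and 3.15 ± 0.56 under vehicle, and Ccn2 by 1.81 ± 0.90 and 2.25 ± 0.47 (SD, n = 5 mice each).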

How the data were processed

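Levels are the authors' deposited log2 values, normalised by RMA per the submitters' processing notes; neither software nor chip definition is given in the sources used here. RMA sets arrays to 1 common distribution, so a shift of most genes together would not be seen, and it compresses low signals. The number of arrays limits precision.

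Groups came from titles; arrays of a group are from separate mice. The labels mention extraction and profiling batches without assigning samples, so batch and treatment cannot be told apart. Vehicle and atorvastatin mice share no replicate number, so nothing pairs them; LCA and RCA of 1 mouse share a number, and their difference was tested within mice.

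The table holds 45118 probe sets. After removal of 81 controls, 28898 had 1 gene symbol, 551 had several and 15588 had none. Each gene was represented by its probe set of highest mean and tested when above the array median on at least 4 of 78 arrays, which kept 11344 of 17097 genes. Limma 3.58.1 (R 4.3.3, statmod 1.5.0) was fitted to the 8 LCA groups (n = 4 to 5), and likewise to the RCA and to differences. It was tested on simulated data. Quality values were compared by exact permutation.

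The comparison, the 39 gene lists and the members named were chosen with earlier results of these data known. The rule named the 10 genes per direction of smallest p where fewer than 12 were called and a panel of statin, flow and inflammation genes. It also named list members past the adjusted threshold, of which there were 0, and the 8 genes of largest SD per group. Predicted genes were left out. Genes named outside this rule, among them list members with an unadjusted p under 0.05, were chosen after their values were seen. Some genes of the panel and lists were not analysed here, and 1 list is not reported here. Alternatives covered the filter, probe set choice, normalisation, centring, priors, array weights, blocks and leaving out each array. The Gapdh term and the removal of arrays high in adipocyte genes were chosen after seeing the data.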

Additional observations from a re-analysis of the deposited data

Results flagged for a closer look

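Each set of 5 values was screened for a sample far from the other 4, and 18 of 230 sets (7.83%) stood out, where chance gives about 1 in 20. The sets include genes chosen for their large SD (Cyp2e1, Olr1, Slc36a2, Plin5 and Tnfaip6 among those that stood out), so this share is not comparable with chance. In atorvastatin mouse 8 the highest values were Thbd at 11.32, Cyp2e1 at 8.21, Olr1 at 8.23, Slc36a2 at 6.95, Plin5 at 7.15 and the adipocyte list mean at 6.56. In atorvastatin mouse 10 Klf15 was lowest at 6.47 and the smooth muscle list mean highest at 6.01, and in atorvastatin mouse 6 the NRF2 list mean was lowest at 8.20. In vehicle mouse 2 Tnfaip6 at 7.50, Nr4a2 at 8.94, Rsad2 at 9.66 and the immediate early list mean at 8.02 were highest. In vehicle mouse 3 Cnrip1 at 7.78 and Ucp1 at 6.99 were highest. In vehicle mouse 4 Bcl2l11 was lowest at 8.81, and in vehicle mouse 5 Col6a3 was lowest at 6.16 and the macrophage list mean highest at 6.60. The drug difference of Ube4a in the LCA minus that in the RCA was -1.73 by the test of the difference between arteries.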

How the results depend on the processing

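For the LCA at 12 h the count of 0 was kept under 12 of the 13 alternatives that did not leave out 1 array, and array weights gave 152. Other counts that moved were as follows. In the RCA at 12 h (5 called) the mean of probe sets, the 2 groups alone, array weights and the Gapdh end ratio each gave 0, and so did they for the LCA minus RCA difference (1 called). In the LCA at 48 h array weights gave 1. In the LCA at 2 weeks array weights gave 18, quantile normalisation again gave 2, and mouse as a random replicate block over both arteries gave 18. That replicate block gave 0 for the LCA at 12 h and changed no other call beyond 1.5 times, and without the replicate block the LCA minus RCA difference again gave 1. Leaving out 1 array at a time gave 0 to 4 calls in the LCA at 12 h (4 without atorvastatin mouse 6, 1 without mouse 9, 2 without vehicle mouse 2), 0 to 194 in the RCA, 0 to 1 for the LCA minus RCA difference, 0 to 7 in the LCA at 2 weeks and 0 to 1 for 12 h minus later times. The hybridisation-control difference in the LCA (0.22) became 0.16 to 0.27 with 1 array left out, and passed the exact permutation test without atorvastatin mouse 9 (0.27, p = 0.0238) or vehicle mouse 1 (0.25, p = 0.0317). Panel genes kept their sign in 304 of 321 values. The 20 leading genes were chosen for small p on these arrays, so their kept sign (456 of 456 values) says nothing of stability, and their sizes moved, for R3hdm1 from -0.49 to -0.04 and for Hdac10 from 0.15 to 0.61. The fit to 2 groups alone could not be made for 12 h minus later times. The cause was not tested for any of these changes.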
